A study of Mus musculus with 7 samples.

Results

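Chemokines are small secreted proteins that attract leukocytes through G protein-coupled receptors, and activated CD8+ T cells are themselves a source of several of them. The 9 chemokine genes described here were listed by gene symbol, with earlier results of these data known. They are *Xcl1*, the CC chemokines *Ccl1*, *Ccl3*, *Ccl4*, *Ccl5*, *Ccl6*, *Ccl9* and *Ccl27a*, and the CXC chemokine *Cxcl10*. All 9 were among the 55367 genes of the count table, and all 9 passed the minimum of a mean of 5 counts per library, as did 12623 genes in all, which given that choice is a description and not a result.

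The CD8+ T cells came from the spleens of Foxp3 YFP/cre mice, a strain in which the cells that express Foxp3 carry a fluorescent protein and Cre, and they were sorted by flow cytometry. The cells of every library received small extracellular vesicles (sEVs) at 100 μg/mL for 48 hours by the labels, whereas the methods of the study describe the amount by the yield of a spleen. The 4 libraries of the control group come from cells that received HCME-sEVs, which are purified from healthy mouse spleens, and the 3 of the other group from cells that received LME-sEVs, purified from the spleens of Eμ-*TCL1* mice, in which the *TCL1* oncogene is driven in B cells and leukemia develops. The methods of the study describe culture of CD8+ T cells on anti-CD3 with IL2 and an antibody to CD28, so both groups describe activated cells, and no resting or vesicle-free cells were compared here. The labels give no age of the mice and do not say whether libraries came from separate animals, so the p-values measure the spread between these libraries, which may be technical.

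RNA was profiled by 3′ RNA-seq with a molecular identifier on each captured molecule, so a count stands for a molecule and gene length does not enter it. The libraries held between 3689831 and 5030522 counts. Levels are given as CPM (read counts scaled to the library total) after TMM normalization, and a floor of 3 counts, which is between 0.58 and 0.804 CPM, was set for detection. The T-cell markers *Cd3d*, *Cd3e*, *Cd3g*, *Cd8a*, *Cd8b1* and *Trac* were at 231 counts or more in every library, whereas the NK-cell gene *Ncr1* was at 0 in 6 of the 7 libraries and at 1 count in the other. Of 8 CD8 T-cell markers, 2 rose with LME-sEVs (*Cd3e*, log2 fold change 0.36, and *Cd3g*, 0.49), beside 3.75% of all tested genes. The markers that fell numbered 0 (0 also at an unadjusted p under 0.05 in edgeR, DESeq2 and limma-voom). The 8 markers summed to between 1863 and 2074 CPM with HCME-sEVs and between 2131 and 2462 CPM with LME-sEVs. The B-cell markers summed to between 234 and 278 CPM and between 316 and 339 CPM, nearly all of it *Ighm*. Of 5 tested, 1 was called higher (*Ighm*, log2 fold change 0.38), beside 3.75% of all tested genes. The log2 fold change was positive for 4 of the 5 and negative for *Ms4a1* (-0.38, edgeR FDR = 0.742). *Cd79a* was at 0 in 6 libraries. Transcripts of other blood cells were present too. The erythroid and platelet markers summed to between 66.3 and 171.3 CPM with HCME-sEVs and between 147.6 and 192.5 CPM with LME-sEVs. Such transcripts are given beside the chemokines they moved with. HCME-sEV library 1 stood furthest from the others of its group: a chi-square of its counts against theirs came to between 4.18 and 6.13 per degree of freedom, against 2.12 to 3.69 for the other HCME-sEV pairs and 2.52 to 2.62 for the LME-sEV pairs.

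Chemokines are classed by the cysteines near their N-terminus. CC chemokines such as CCL3 and CCL5 attract T cells and monocytes, CXCL10 acts through CXCR3, and XCL1 acts through XCR1 on cross-presenting dendritic cells. In T cells, *Ccl1*, *Ccl3*, *Ccl4* and *Xcl1* are induced by antigen-receptor signaling, *Ccl5* is a late gene of effector and memory cells, and *Cxcl10* is induced by interferons. *Ccl6* and *Ccl9* are better known as products of myeloid cells.

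Between LME-sEVs and HCME-sEVs, the 9 genes did not move together. *Ccl5* and *Ccl6* rose with LME-sEVs, *Ccl1*, *Ccl4* and *Cxcl10* fell, and *Ccl3*, *Ccl9*, *Ccl27a* and *Xcl1* did not pass the test. The test was the quasi-likelihood test of edgeR, and a gene was called when its Benjamini-Hochberg FDR, adjusted over the 12623 tested genes, was under 0.05. Of all tested genes, 3.75% were called higher and 5.21% called lower, beside 2 of 9 and 3 of 9 members. A differentially expressed gene (DEG) also had a log2 fold change beyond 1 in either direction, which 1.28% of tested genes met and, of the members, *Ccl6*. The median log2 fold change of the members was -0.0022, with a range of -0.99 to 1.68, beside a median of 0.0095 over all tested genes. Every LME-sEV library was above every HCME-sEV library for 3 members (*Ccl5*, *Ccl6* and *Ccl27a*; 9.49% of all tested genes) and below for 3 (*Ccl1*, *Ccl4* and *Cxcl10*; 10.8%). *Ccl27a* passed the minimum only through the LME-sEV libraries, where it is high, so its place in this count carries no weight. Since these are bulk cultures, fewer cells that make a chemokine and less RNA of it per cell cannot be told apart.

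**Figure D1:**
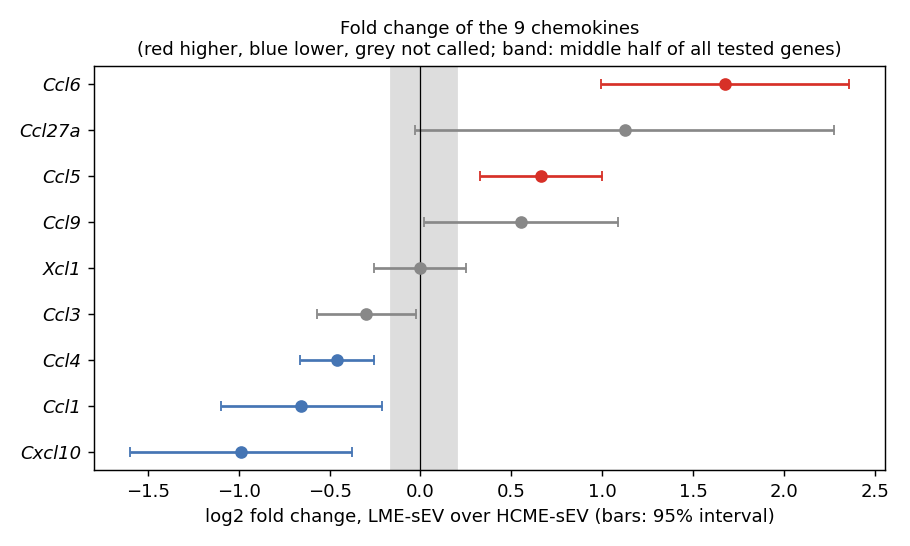
Log2 fold change of each chemokine (x axis, LME-sEVs over HCME-sEVs) with its unadjusted 95% interval; the gray band spans the quartiles of all tested genes, from -0.16 to 0.20. *Ccl6* lies farthest to the right at 1.68 and *Cxcl10* farthest to the left at -0.99, and *Xcl1* sits at 0.

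The most abundant chemokine transcript was *Xcl1* (lymphotactin), at chr1:164931644-164935527 on the minus strand of GRCm38 (GENCODE vM21, as for all genes here), whose level exceeded that of 98.2% of tested genes. It was at 471, 601, 606 and 489 CPM in HCME-sEV libraries 1 to 4 and 475, 610 and 537 CPM in LME-sEV libraries 1 to 3. Each group spanned nearly the same range, and the groups overlapped. The means were 542 ± 72.0 CPM (HCME-sEVs, n = 4, SD) and 540 ± 67.4 CPM (LME-sEVs, n = 3, SD), and the log2 fold change was -0.0022 (standard error 0.098, edgeR FDR = 0.992) with an unadjusted 95% interval from -0.26 to 0.25. The interval leaves room for a change of that size in either direction. An antisense transcript, *Gm20743*, shares 98 exon bases with *Xcl1* and had at most 9 counts in a library.

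*Ccl3* and *Ccl4* encode the macrophage inflammatory proteins MIP-1α and MIP-1β, and their genes lie 13228 bases apart on chromosome 11, on opposite strands (chr11:83647844-83649355, minus, and chr11:83662584-83664683, plus). *Ccl4* was at 308, 272, 267 and 272 CPM with HCME-sEVs and at 197, 213 and 200 CPM (library 3: 199.8) with LME-sEVs. All 3 LME-sEV libraries lay below all 4 HCME-sEV libraries, and HCME-sEV library 1 was the highest of its group. The mean fell from 280 ± 19.3 CPM (HCME-sEVs, n = 4, SD) to 203 ± 8.72 CPM (LME-sEVs, n = 3, SD), a log2 fold change of -0.46 (standard error 0.079, edgeR FDR = 0.00113), or 72.7% of the control level. The call held with each library left out in turn.

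*Ccl3* was at 177, 207, 206 and 179 CPM with HCME-sEVs and at 130, 148 and 189 CPM with LME-sEVs. LME-sEV libraries 1 and 2 were below every control, but library 3 lay inside the control range. The means were 192 ± 16.5 CPM (HCME-sEVs, n = 4, SD) and 156 ± 30.0 CPM (LME-sEVs, n = 3, SD). The log2 fold change was -0.30 (standard error 0.11) and did not pass the correction (edgeR FDR = 0.0855); without LME-sEV library 3 it was -0.46 (FDR = 0.0184), without HCME-sEV library 1 it was -0.33 (FDR = 0.0455), and with no filter on low counts -0.29 (FDR = 0.0322). The quotient of *Ccl4* to *Ccl3* counts, which no normalization touches, was 1.75, 1.31, 1.30 and 1.52 with HCME-sEVs and 1.51, 1.44 and 1.06 with LME-sEVs. These quotients overlapped between the groups, so the 2 neighbors were not seen to part beyond the spread of the libraries.

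*Ccl1*, the ligand of CCR8, lies on the same chromosome, 1220087 bases from *Ccl5*. GENCODE gives it chr11:82176657-82305690 on the minus strand, a span of 129034 bases over 3 transcripts. It was at 17.8, 15.2, 16.2 and 23.2 CPM with HCME-sEVs and at 11.5, 11.9 and 11.2 CPM with LME-sEVs. All LME-sEV libraries lay below the controls and close to each other, while HCME-sEV library 4 was the highest. The mean fell from 18.1 ± 3.58 CPM (HCME-sEVs, n = 4, SD) to 11.5 ± 0.334 CPM (LME-sEVs, n = 3, SD), a log2 fold change of -0.65 (standard error 0.17, edgeR FDR = 0.0206). This call was lost when HCME-sEV library 4 was left out (FDR = 0.0750) and when any of LME-sEV libraries 1, 2 and 3 was (FDR = 0.0568, 0.0766 and 0.0951), with log2 fold changes between -0.68 and -0.51. *Ccr8* itself was at 0 in 5 libraries, with at most 2 counts.

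*Cxcl10* encodes IP-10 and lies at chr5:92346638-92348889 on the minus strand. It was at 10.3, 9.85, 14.9 and 11.8 CPM with HCME-sEVs and at 8.58, 4.71 and 4.83 CPM with LME-sEVs. The groups did not overlap, although LME-sEV library 1 came near to the lowest control. The mean of 11.7 ± 2.26 CPM (HCME-sEVs, n = 4, SD) fell to 6.04 ± 2.20 CPM (LME-sEVs, n = 3, SD), a log2 fold change of -0.99 (standard error 0.24, edgeR FDR = 0.0127), which is 50.5% of the control level and just short of the cutoff for a DEG. Counts were between 39 and 56 in the controls and between 21 and 32 with LME-sEVs. Without LME-sEV library 2 or 3, the log2 fold change was -0.85 or -0.84 and the FDR 0.0908 or 0.0951. The opposite-strand gene *Art3* shares 133 exon bases with *Cxcl10* and had at most 3 counts in a library.

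**Figure D2:**
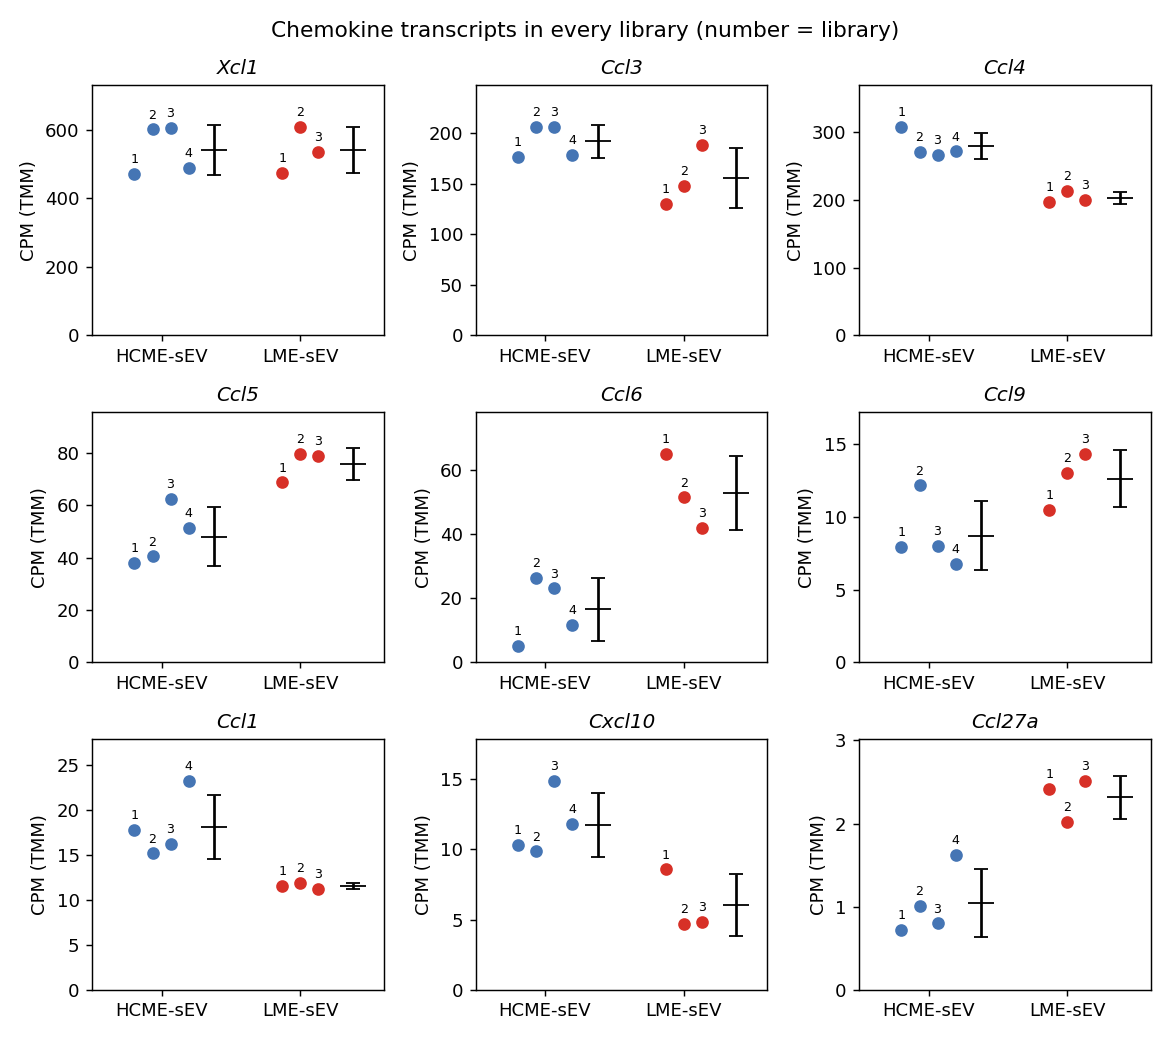
Level of each chemokine (y axis, TMM-normalized CPM, from 0) in each of the 4 HCME-sEV (blue) and 3 LME-sEV (red) libraries, numbered by library, with the mean and SD in black. The groups are apart for *Ccl4*, *Ccl5*, *Ccl6*, *Ccl1*, *Cxcl10* and *Ccl27a*, and overlap for *Xcl1*, *Ccl3* and *Ccl9*.

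Because *Cxcl10* is a target of interferon signaling, 14 interferon-induced genes were read beside it. All 14 were tested. Of them, 5 fell (*Gbp2*, *Isg15*, *Ifit3*, *Ifit1* and *Gbp4*) and 0 rose, beside 5.21% and 3.75% of all tested genes. A negative log2 fold change was seen in 11, with a median of -0.38, while 51.5% of all tested genes had a positive one. At an unadjusted p under 0.05, 7 of the 14 were lower and 0 higher, with edgeR as with DESeq2 and limma-voom. The count of 5 dropped to 3 if HCME-sEV library 2 was left out and to 2 if LME-sEV library 2 or 3 was. *Isg15*, a ubiquitin-like protein, went from 28.7 ± 11.8 CPM (HCME-sEVs, n = 4, SD) to 9.82 ± 1.66 CPM (LME-sEVs, n = 3, SD), a log2 fold change of -1.54 (edgeR FDR = 0.000691). *Gbp2*, a guanylate-binding protein, fell by 0.55 on the log2 scale (edgeR FDR = 0.000239). The transcription factor gene *Irf1* had a log2 fold change of -0.045 (edgeR FDR = 0.768). The other CXCR3 ligands were near the limit of detection: *Cxcl9* had between 5 and 11 counts per library (log2 fold change 0.11, edgeR FDR = 0.926), and *Cxcl11* at most 4. The receptor gene *Cxcr3* was at 41.8 ± 4.54 CPM (HCME-sEVs, n = 4, SD) and 49.2 ± 3.50 CPM (LME-sEVs, n = 3, SD), a log2 fold change of 0.24 that did not pass (edgeR FDR = 0.193).

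The promoters of *Cxcl10* and *Ccl1* are shown because both genes fell and both windows hold motifs of factors that act in activated T cells. Windows from 250 bases before to 50 after the start were taken from RefSeq (GRCm38.p6), where 7 of the 9 members had at least 1 window; *Ccl4* and *Ccl5* had none. Searches ran on both strands and capitals mark the matches. *Cxcl10* (chr5:92348840-92349139, minus strand) matched an ISRE-like motif at -213, a κB-like motif at -158 and an AP-1 motif at -74 relative to the start. *Ccl1* (chr11:82179763-82180062, minus strand) matched a κB-like motif at -195 and, on the other strand, an NFAT-like motif at -117 and an ISRE-like motif at -91.
Cxcl10 promoter: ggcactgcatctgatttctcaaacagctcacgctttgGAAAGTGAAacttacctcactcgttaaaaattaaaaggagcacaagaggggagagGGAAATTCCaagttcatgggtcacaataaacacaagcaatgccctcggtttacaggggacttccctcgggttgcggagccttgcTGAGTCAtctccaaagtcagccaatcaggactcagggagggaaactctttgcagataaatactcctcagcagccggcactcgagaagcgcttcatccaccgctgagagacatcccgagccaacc
Ccl1 promoter: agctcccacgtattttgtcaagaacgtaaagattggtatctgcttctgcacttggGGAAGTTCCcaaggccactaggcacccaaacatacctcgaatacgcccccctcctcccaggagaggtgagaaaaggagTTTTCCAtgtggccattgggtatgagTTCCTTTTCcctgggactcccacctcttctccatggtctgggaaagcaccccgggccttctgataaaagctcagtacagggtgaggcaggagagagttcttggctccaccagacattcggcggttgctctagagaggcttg
The κB-like letters GGANNTTCC, which read alike on both strands, occurred in 4.26% of all 32851 promoter windows and in those of 2 members (*Ccl1* and *Cxcl10*). The ISRE-like GAAANNGAA occurred in 8.56% of windows and in 3 of the members' 9 windows (*Ccl1*, *Ccl3* and *Cxcl10*), the AP-1 motif TGANTCA in 7.81% and 3 (*Ccl27a*, *Ccl9* and *Cxcl10*), the NFAT-like TGGAAAA in 6.73% and 1 (*Ccl1*), and the GAS motif TTCNNNGAA in 8.3% and 0. A TATA box (TATAAA) was found in 13.6% of windows and in that of *Ccl9*. These matches describe letters in short windows and not binding.

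*Ccl6* showed the largest change of the 9. It lies at chr11:83587882-83593087 on the minus strand, between *Ccl9* and *Ccl3*. Its level was 5.29, 26.3, 23.1 and 11.8 CPM with HCME-sEVs and 65.1, 51.5 and 42.1 CPM with LME-sEVs. The lowest LME-sEV library was above the highest control, but the controls themselves ranged from 22 counts in library 1 to 104 in library 2. The mean rose from 16.6 ± 9.78 CPM (HCME-sEVs, n = 4, SD) to 52.9 ± 11.6 CPM (LME-sEVs, n = 3, SD), a log2 fold change of 1.68 (standard error 0.27, edgeR FDR = 0.000662), or 3.19-fold. Without HCME-sEV library 1, the lowest, it was 1.37 (FDR = 5.42e-05), and the range over all 7 omissions was 1.37 to 1.99.

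*Ccl6* moved with transcripts of basophils, mast cells and eosinophils. Of 10 such markers, 8 were tested and 4 rose (*Prg2*, *Kit*, *Prss34* and *Mcpt8*), beside 3.75% of all tested genes called higher. The markers that fell numbered 0 (0 also at an unadjusted p under 0.05 in edgeR, DESeq2 and limma-voom). The summed level of the 10 markers was 16.8, 47.0, 43.6 and 25.5 CPM in HCME-sEV libraries 1 to 4 and 65.7, 69.7 and 48.5 CPM in LME-sEV libraries 1 to 3. Among the controls, the order of the libraries by this sum (1, 4, 3, 2) was also their order by *Ccl6*. With LME-sEVs the orders differed, being 3, 1, 2 by this sum and 3, 2, 1 by *Ccl6*. HCME-sEV library 1 was also the lowest control by the summed erythroid and platelet (66.3 CPM), B-cell (234 CPM) and CD8 T-cell markers (1863 CPM). It was not the lowest by the NK-cell (203 CPM) or the macrophage, monocyte and neutrophil markers (6.49 CPM). By the erythroid and platelet sum the controls ran 1, 4, 2, 3. The eosinophil granule gene *Prg2*, which passed the minimum only through the LME-sEV libraries, had at most 2 counts in each control and 18, 41 and 21 with LME-sEVs, whereas *Epx*, another, was at 0 in all controls and at 1, 1 and 2 with LME-sEVs. The basophil protease *Mcpt8* had 3, 35, 24 and 9 counts in the controls and 50, 71 and 36 with LME-sEVs, so LME-sEV library 3 was close to HCME-sEV library 2. The mast-cell protease *Cpa3* had a log2 fold change of -0.26 (edgeR FDR = 0.721). In DESeq2, 2 of the markers were called. Macrophage, monocyte and neutrophil markers were scarce. Of 10, 2 were tested and 0 passed (1 at an unadjusted p under 0.05 in edgeR and limma-voom and 0 in DESeq2), and they summed to between 3.99 and 6.49 CPM in the controls and between 7.34 and 12.6 CPM with LME-sEVs. *Lyz2* had at most 5 counts, and *Adgre1* and *Cd14* at most 1. The integrin *Itgam*, under the minimum, had 0, 0, 0 and 1 count in the controls and 6, 8 and 6 with LME-sEVs. The part of these cells in the *Ccl6* result was not tested.

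*Ccl9* (MIP-1γ) is the neighbor of *Ccl6*, 9245 bases away on the same strand, with 0 protein-coding genes between them. It was at 7.93, 12.1, 7.97 and 6.73 CPM with HCME-sEVs and at 10.5, 13 and 14.3 CPM with LME-sEVs. HCME-sEV library 2 was inside the LME-sEV range, and the other controls were below it. The means were 8.69 ± 2.36 CPM (HCME-sEVs, n = 4, SD) and 12.6 ± 1.96 CPM (LME-sEVs, n = 3, SD), and the log2 fold change of 0.55 (standard error 0.21) did not pass (edgeR FDR = 0.107). Without HCME-sEV library 2 it was 0.75 (FDR = 0.0408). Per library, *Ccl6* counts were 0.667, 2.17, 2.90 and 1.76 times those of *Ccl9* in the controls and 6.23, 3.97 and 2.95 times with LME-sEVs, so the highest control and the lowest LME-sEV library nearly met. The promoters of the pair are shown for their local alignment (1 point a match). Among the 7 members with a window, it scored higher than that of any other pair. In it, 58 of 74 columns were identical (78.4%). The *Ccl6* window (chr11:83593038-83593337, minus strand) held 0 of the motifs searched. That of *Ccl9* (chr11:83578587-83578886, minus strand) held an AP-1 motif at -53 and TATA-box letters at -224 and, overlapping on opposite strands, at -94 and -92.
Ccl6 promoter: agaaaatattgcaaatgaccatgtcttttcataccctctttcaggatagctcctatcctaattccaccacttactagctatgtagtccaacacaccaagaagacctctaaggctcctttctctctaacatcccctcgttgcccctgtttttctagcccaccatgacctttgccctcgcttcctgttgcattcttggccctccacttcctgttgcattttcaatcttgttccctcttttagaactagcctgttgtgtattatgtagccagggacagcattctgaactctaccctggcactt
Ccl9 promoter: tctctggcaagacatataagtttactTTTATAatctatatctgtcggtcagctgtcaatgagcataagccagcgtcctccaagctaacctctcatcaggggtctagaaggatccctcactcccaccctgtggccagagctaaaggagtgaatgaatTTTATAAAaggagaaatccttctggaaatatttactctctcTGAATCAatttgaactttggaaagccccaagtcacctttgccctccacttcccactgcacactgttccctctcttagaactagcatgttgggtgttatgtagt

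*Ccl5* encodes RANTES and lies at chr11:83525778-83530518 on the minus strand, 42400 bases from *Ccl9*. It was at 37.95, 40.4, 62.4 and 51.3 CPM with HCME-sEVs and at 68.6, 79.5 and 78.6 CPM with LME-sEVs. The LME-sEV libraries were all above the controls, of which library 3 was the nearest. The mean rose from 48.0 ± 11.2 CPM (HCME-sEVs, n = 4, SD) to 75.6 ± 6.06 CPM (LME-sEVs, n = 3, SD), a log2 fold change of 0.66 (standard error 0.13, edgeR FDR = 0.00341), or 1.58-fold. With each library left out in turn it ranged from 0.56 to 0.81 and stayed called, with an FDR of at most 0.0333. The gene of CCR1, a receptor of CCL5, had between 2 and 7 counts per library.

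CCL5 is also known from platelets, and the platelet chemokines *Pf4* and *Ppbp* moved the same way. *Pf4* was at 30.3, 59.4, 108 and 46.0 CPM with HCME-sEVs and at 107.5, 117 and 92.4 CPM with LME-sEVs, with a log2 fold change of 0.81 (edgeR FDR = 0.0331). HCME-sEV library 3 was inside the LME-sEV range. *Ppbp* had a log2 fold change of 0.89 (edgeR FDR = 0.0188), also with HCME-sEV library 3 among the LME-sEV libraries. In DESeq2, neither was called, and in edgeR neither was called without HCME-sEV library 2 or 4 or LME-sEV library 2, and 1 of them without LME-sEV library 1 or 3. The 9 erythroid and platelet markers, which hold both genes, summed to between 66.3 and 171 CPM in the controls and between 148 and 193 CPM with LME-sEVs. Of 6 tested, 3 rose in edgeR (*Pf4*, *Ppbp* and the erythroid globin gene *Hba-a1*, log2 fold change 0.90, edgeR FDR = 0.0486), beside 3.75% of all tested genes. *Hba-a1* was at mean levels of 3.34 CPM (HCME-sEVs) and 6.26 CPM (LME-sEVs). The more abundant globin gene *Hbb-bs* did not differ, with means of 23.0 CPM (HCME-sEVs) and 23.1 CPM (LME-sEVs). Its log2 fold change was -0.012 (edgeR FDR = 0.981). In DESeq2, 0 of the 6 were called higher, and 2 were higher at an unadjusted p under 0.05. The markers that fell numbered 0 (0 also at an unadjusted p under 0.05 in edgeR, DESeq2 and limma-voom). The platelet receptor gene *Gp1bb* was at 0 in 6 of 7 libraries. Of the markers of NK cells, another source of *Ccl5* and *Xcl1*, 6 of 8 were under the minimum, 0 of 2 tested were called (1 lower at an unadjusted p under 0.05 in each of the 3 tools), and nearly all of the summed level was *Eomes*, which activated CD8+ T cells also express. The part of platelets, erythroid cells and NK cells in the *Ccl5* result, and that of NK cells in the *Xcl1* values, was not tested.

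**Figure D3:**
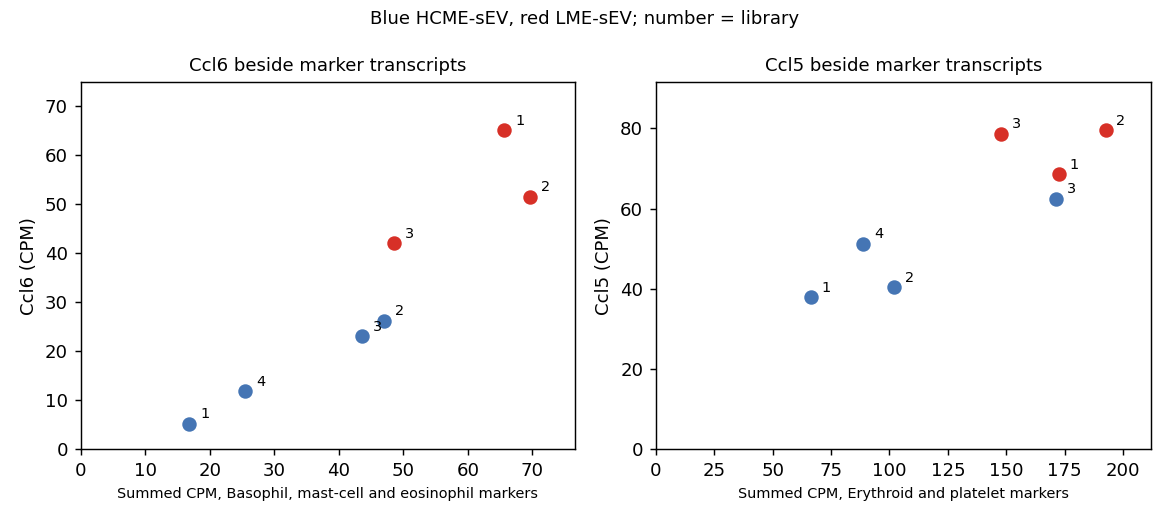
Left, *Ccl6* (y axis, CPM) against the summed CPM of 10 basophil, mast-cell and eosinophil markers (x axis); right, *Ccl5* against the summed CPM of 9 erythroid and platelet markers; points are libraries, blue for HCME-sEVs and red for LME-sEVs. The controls line up from library 1 (16.8 and 5.29 CPM) to library 2 (47.0 and 26.3 CPM) on the left, and LME-sEV library 3 lies above library 2 of the controls in *Ccl6* at nearly the same marker sum.

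*Ccl27a* (CTACK), known mainly as a skin chemokine and ligand of CCR10, was at the edge of detection. It lies at chr4:41769467-41774247 on the minus strand. It had 3, 4, 3 and 7 counts with HCME-sEVs and 9, 9 and 13 with LME-sEVs, or 1.04 ± 0.41 CPM (HCME-sEVs, n = 4, SD) and 2.31 ± 0.262 CPM (LME-sEVs, n = 3, SD). The groups did not overlap, but the log2 fold change of 1.12 (standard error 0.45, unadjusted 95% interval -0.03 to 2.27) did not pass (edgeR FDR = 0.131). Its counts are uncertain. The last 300 bases of a *Ccl27a* transcript are nearly identical to those of 5 other genes, among them *Ccl27b*, which was at 0 in every library, and *Gm20878*, which had 1 count in all. Its exons also overlap those of *Il11ra1* on the other strand by 8 bases.

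Of the 6 members on chromosome 11, the 5 other than *Ccl1* lie close together, and their log2 fold changes divided by position. *Ccl5*, *Ccl9* and *Ccl6*, at the lower coordinates, had positive log2 fold changes of 0.66, 0.55 and 1.68. *Ccl3* and *Ccl4*, 54756 bases beyond *Ccl6*, had negative ones of -0.30 and -0.46. The called genes were *Ccl5* and *Ccl6* on one side and *Ccl4* on the other. This is a description of 5 genes, and no test of position was made.

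**Figure D4:**
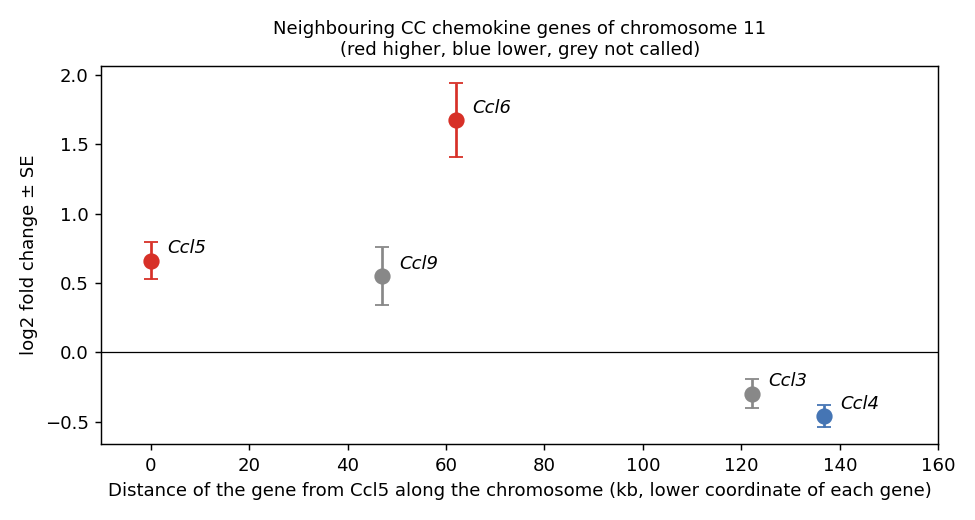
Log2 fold change with its standard error (y axis) of 5 chemokine genes by their distance in kb from *Ccl5* on chromosome 11 (x axis). The 3 genes on the left are above 0 and the 2 on the right below it.

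The summed level of the 9 chemokines hardly differed between the groups. It was 1036, 1184, 1204 and 1046 CPM with HCME-sEVs and 968, 1134 and 1079 CPM with LME-sEVs, about 0.1% of each library (0.0979% to 0.12%). Its make-up did differ. *Xcl1*, *Ccl3* and *Ccl4* made up between 89.6% and 92.3% of the sum in the controls and between 82.8% and 85.8% with LME-sEVs. *Ccl6* took between 0.51% and 2.22% in the controls and between 3.91% and 6.73% with LME-sEVs, and *Ccl5* between 3.41% and 5.18% against 7.02% to 7.29%. By mean level, the order in the controls was *Xcl1*, *Ccl4*, *Ccl3*, *Ccl5*, *Ccl1*, *Ccl6*, *Cxcl10*, *Ccl9* and *Ccl27a*. With LME-sEVs, *Ccl6* came next after *Ccl5*, and *Ccl9* stood before *Ccl1* and *Cxcl10*. In the controls, the ranges of *Ccl1*, *Ccl6*, *Cxcl10* and *Ccl9* each overlapped with that of the next, so their order there is not settled, while the 4 most abundant did not overlap. With LME-sEVs, *Ccl9* and *Ccl1* overlapped and no other neighbors in the order did.

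**Figure D5:**
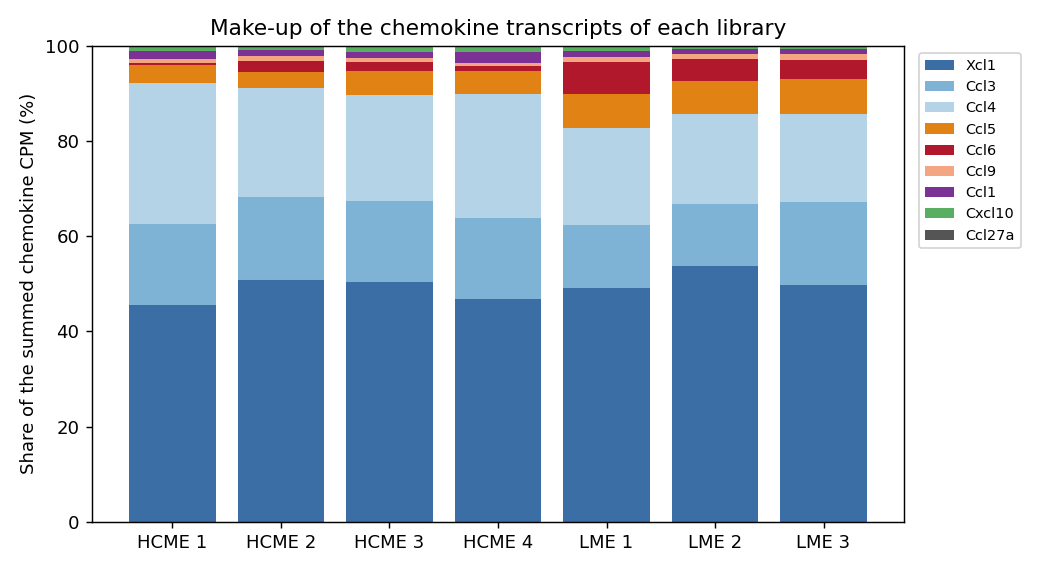
Share of each chemokine in the summed CPM of the 9 genes (y axis, %) for each library (x axis). *Xcl1* takes between 45.4% and 53.8% in every library, and the *Ccl5* and *Ccl6* segments are wider in the 3 LME-sEV bars.

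Few other chemokine genes were expressed. Of 32 other ligands, 28 were under the minimum and 13 of these were at 0 in all libraries, among them *Ccl2*, *Ccl7*, *Ccl8* and *Cxcl1*. Apart from *Pf4*, *Ppbp* and *Cxcl9*, *Ccl25* was tested and was not called (log2 fold change 0.46, edgeR FDR = 0.204), with 6.07 ± 0.881 CPM (HCME-sEVs, n = 4, SD) and 8.36 ± 0.317 CPM (LME-sEVs, n = 3, SD). The 9 members, which were chosen with their levels known, held between 86.9% and 95.4% of the CPM of all listed ligands.

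Of 24 chemokine receptor genes, 13 were tested, 2 rose and 2 fell, beside 3.75% and 5.21% of all tested genes. *Cxcr4*, the receptor of CXCL12, rose from 14.3 ± 4.15 CPM (HCME-sEVs, n = 4, SD) to 33.2 ± 3.80 CPM (LME-sEVs, n = 3, SD), a log2 fold change of 1.21 (edgeR FDR = 0.000301). *Cxcr5*, the receptor for CXCL13, rose by 0.84 on the log2 scale (edgeR FDR = 0.0249). *Ccr2*, a receptor of inflammatory homing, fell by 0.49 (edgeR FDR = 0.00174), and *Cxcr6*, the receptor of CXCL16, fell by 0.50 (edgeR FDR = 0.00652). For these 4 the groups did not overlap, where 9.49% of all tested genes lay wholly above and 10.8% wholly below the controls. The log2 fold changes of the 13 ranged from -0.59 to 1.21, with a median of 0.21. Without LME-sEV library 3, 2 of the receptor genes were called. The XCL1 receptor *Xcr1* had 1 count in 1 library and 0 in the others.

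By the two-sided exact permutation test of log2 CPM, which has 35 assignments of the 7 libraries and cannot give a p below 0.0286, *Ccl1*, *Ccl4* and *Cxcl10* were at that smallest value. *Ccl5* and *Ccl6* were at 0.0571. None of these p-values is corrected.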

How the data were processed

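RNA of CD8+ T cells was counted in 7 libraries by 3′ RNA-seq (QuantSeq with UMI). The authors trimmed reads with cutadapt 2.10, mapped them to GRCm38 with STAR 2.5.3a, collapsed them by UMI with UMI-tools 1.0.0 and counted them per gene with featureCounts of Subread 2.0.0. The deposited values are whole-number counts per gene symbol with no normalization or filter; the annotation and strand setting are not given in the sources used here. Without a stated strand setting, reads of overlapping genes on opposite strands cannot be told apart. Groups came from the sample titles, and the column names of the deposited table give the same groups. A legend of the study gives the group sizes the other way round.

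Genes whose counts averaged 5 or more over the libraries (12623) were normalized by TMM and tested with edgeR 4.0.16 (glmQLFit, glmQLFTest) in R 4.3.3, with no covariate and Benjamini-Hochberg adjustment over all of them. The 95% intervals use a t distribution with 5 degrees of freedom and are not adjusted. They are wider than the edgeR test implies: *Ccl27a* had an unadjusted edgeR p of 0.0207 although its interval includes 0. The test was checked on simulated data. Alternatives were other scalings and filters, DESeq2 1.42.0, limma-voom (limma 3.58.1), the replicate number as a block and leaving out each library. These intervals include the spread between libraries, while the 3-count floor covers counting error only. Copies of 3′ ends were searched with blast 2.17.0 at 95% identity over at least 200 of the last 300 bases, and promoters were aligned with biopython 1.88. All members were named; of other lists, called genes were named (at most 6), and genes singled out beyond these, such as *Irf1*, *Cxcr3* and single markers, were chosen after their values were seen. The members and lists were chosen with earlier results of these data known. Some genes of the lists are not reported here by name.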

Additional observations from a re-analysis of the deposited data

Results flagged for a closer look

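In 1 of 19 sets of HCME-sEV values (the 9 chemokines and the summed levels of the 10 gene lists), a library stood far from the other 3, where chance flags 0.95. For *Ccl4*, HCME-sEV library 1 was at 308 CPM and the nearest library at 272 CPM, a gap of 0.885 of the range of the group, past the 95% critical value of Dixon's test for 4 libraries. Without this library the log2 fold change of *Ccl4* was -0.41 (edgeR FDR = 0.00111), against -0.46 with it. The LME-sEV group of 3 was too small for this comparison.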

How the results depend on the processing

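Across 16 other settings, *Ccl4*, *Ccl5* and *Ccl6* kept their direction and their call. Of 141 values of the 9 members, 119 kept direction and side of the threshold, 7 lost the call (*Ccl1* in 5 settings, *Cxcl10* in 2), 5 gained it (*Ccl3* in 4, *Ccl9* in 1) and 10 changed sign, all of them *Xcl1*. *Xcl1* was at 0.017 with the upper quartile, 0.042 with library size only, 0.0016 with limma-voom, 0.0059 with no filter, 0.0044 with filterByExpr, 0.0049 with at least 5 counts in every library, and between -0.097 and 0.088 with each library left out. DESeq2 gave no adjusted p for *Ccl27a*, and *Ccl27a* had too few counts for the last 2 of those filters. With each library left out, between 2 and 3 members were higher and between 1 and 4 lower (1 without LME-sEV library 2, 4 without HCME-sEV library 1), and 0 to 2 other ligands, 2 to 5 receptors and 2 to 6 interferon-induced genes were called. With DESeq2, 0 other ligands were called (1 at an unadjusted p under 0.05). The causes were not tested.

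With the replicate number as a block (replicate block), *Ccl1* was at -0.50 (FDR = 0.0624) and *Ccl3* at -0.35 (FDR = 0.00514); no other member's call changed. The numbers do not pair the libraries by what the labels say, and the deviations of same-numbered libraries correlated at 0.27, 0.042 and 0.16.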
